A study of Homo sapiens with 8 samples.

Results

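Aminoacyl-tRNA synthetases are a group of 35 genes here, 19 coding for cytosolic enzymes and 16 for mitochondrial ones. They were chosen by gene symbol, with the mitochondrial enzymes carrying a final 2, and all 35 were found among the 19305 transcript accessions counted. Of these, 18 cytosolic and 16 mitochondrial genes entered the test, which covered 14565 genes. VARS1, the cytosolic valyl-tRNA synthetase, had 0 counts in every library and was not tested.

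The study measured polyadenylated RNA by RNA sequencing in 2 human cell lines depleted of eIF2A, an initiation factor able to load initiator tRNA on the ribosome. HEK293T, an embryonic kidney line, was given sodium arsenite, an oxidative stressor, in both of its groups, one with control siRNA and the other with eIF2A siRNA. H9, a line of embryonic stem cells, had groups with control shRNA and with eIF2A shRNA, and its labels name no arsenite. Each of the 4 groups held 2 libraries. The labels do not say whether libraries of 1 group are separate cultures, how many siRNA or shRNA sequences were used or how long they acted. The p-values therefore rest on the spread between these libraries alone, and that spread may be technical.

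A synthetase joins an amino acid to the tRNA that reads its codons, and the charged tRNA is then carried to the ribosome by an elongation factor. Cytosol and mitochondria each need their own set, and both sets are encoded in the nucleus. Several cytosolic enzymes sit together on the scaffold proteins AIMP1, AIMP2 and EEF1E1 in the multisynthetase complex. GARS1 and KARS1 each supply both compartments from 1 gene, which is why neither has a mitochondrial counterpart in the list. Many cytosolic synthetase genes are transcribed by ATF4, a factor made when eIF2 alpha is phosphorylated under stress or amino acid shortage; ATF4 pairs with C/EBP proteins on a promoter element whose core reads TGATGCAA.

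That core was looked for on both strands of the RefSeq promoters (GRCh38.p14, 250 bases before to 50 after the start), which were at hand for 30 of the 35 genes; AARS2, LARS1, VARS1, VARS2 and YARS1 had none. Counted by gene, it was found for 6 of 16 cytosolic genes and 0 of 14 mitochondrial ones, against 1.08% of all 27305 genes with an entry. Counted by entry, it was in 0.866% of all 35116 promoter entries of this length. The 6 windows of 30 bases, each written 5′ to 3′ on the gene's own strand with the match in capitals, show which synthetase promoters carry the ATF4 core; TTGCATCA is the same core read from the opposite strand.
TARS1, chr5:33440956-33440985, + strand: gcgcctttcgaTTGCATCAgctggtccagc
IARS1, chr9:92293692-92293721, - strand: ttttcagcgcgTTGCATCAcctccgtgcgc
CARS1, chr11:3057407-3057436, - strand: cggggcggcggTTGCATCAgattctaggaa
MARS1, chr12:57488053-57488082, + strand: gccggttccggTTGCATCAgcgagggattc
AARS1, chr16:70289675-70289704, - strand: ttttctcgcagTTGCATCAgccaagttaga
NARS1, chr18:57621804-57621833, - strand: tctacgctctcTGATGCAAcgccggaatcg
In TARS1, IARS1, CARS1, MARS1 and NARS1 the match begins between -13 and 14 bases from the annotated start, and in AARS1 it begins at -187. A looser core, TGATGNAA, also took in GARS1 and YARS2 but was found for 4.46% of all genes with an entry (3.62% of all entries). A match describes the letters of this window and is not a measured binding site.

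Gene counts per library ranged from 21837052 to 32318668. EIF2A fell in both lines, from 17.5 and 18.3 to 5.58 and 5.98 CPM (gene counts per library, put on 1 scale with TMM factors) in HEK293T and from 15.8 and 14.8 to 5.03 and 4.67 CPM in H9. Reads assigned to no feature moved with the groups: 15.6 and 17.7% in the HEK293T controls against 15.0% in both siRNA libraries, and 18.8 and 18.4% in the H9 controls against 20.8 and 20.6% with shRNA. The pair of HEK293T controls also had the widest difference between replicates (chi-square per degree of freedom 4.91, against 1.35 to 1.80). All 8 pluripotency markers were at 1 CPM or more in every H9 library. Their summed level was 4487 and 4501 CPM in the H9 controls against 4218 and 4302 CPM with shRNA, while summed neural markers were 238 and 242 against 486 and 474 CPM, with 4 of 6 at 1 CPM or more in the controls and 5 of 6 with shRNA. Summed mesoderm and endoderm markers were 35.02 and 35.8 against 73.6 and 68.6 CPM (3 of 8 at 1 CPM or more), trophoblast markers 25.6 and 26.2 against 16.9 and 16.2 CPM (1 of 5), and fibroblast markers 974 and 980 against 842 and 856 CPM (3 of 6: THY1, COL1A1 and COL1A2, with COL3A1, DCN and LUM under 1 CPM). Single genes carried these sums. NES rose from a mean of 221 to 452 CPM while SOX1 was called lower. KDR rose from 28.97 to 66.5 CPM while FOXA2 was called lower. THY1 fell from 791 to 593 CPM while COL1A1 and COL1A2 were called higher. By calls in H9, 4 of 6 neural markers were higher and 1 lower, and 3 of 8 pluripotency markers higher and 4 lower. With a trend on GC content and length removed from each library, these were 2 and 1, and 2 and 6. Of all genes, 37.0% were called higher and 34.3% lower in H9, and 24.0% and 28.6% with that trend removed. The part of these library differences in the changes below was not tested. In bulk RNA, a change in the mix of cells and a change of RNA within each cell cannot be told apart.

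In arsenite-treated HEK293T, eIF2A siRNA went with small changes of synthetase transcripts in both directions. Of 18 cytosolic genes tested, 6 rose (GARS1, HARS1, IARS1, KARS1, TARS1 and YARS1) and 3 fell (AARS1, CARS1 and QARS1), beside 14.1% of all genes called higher and 14.7% called lower. Of 16 mitochondrial genes, 2 rose (LARS2 and YARS2) and 3 fell (AARS2, CARS2 and SARS2). The median log2 fold change was 0.06 over the cytosolic genes and 0.03 over 15 mitochondrial genes without VARS2, against 0.00 over all genes. A gene was called at a Benjamini-Hochberg adjusted p under 0.05 in edgeR's quasi-likelihood test, run over all genes.

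**Figure D1:**
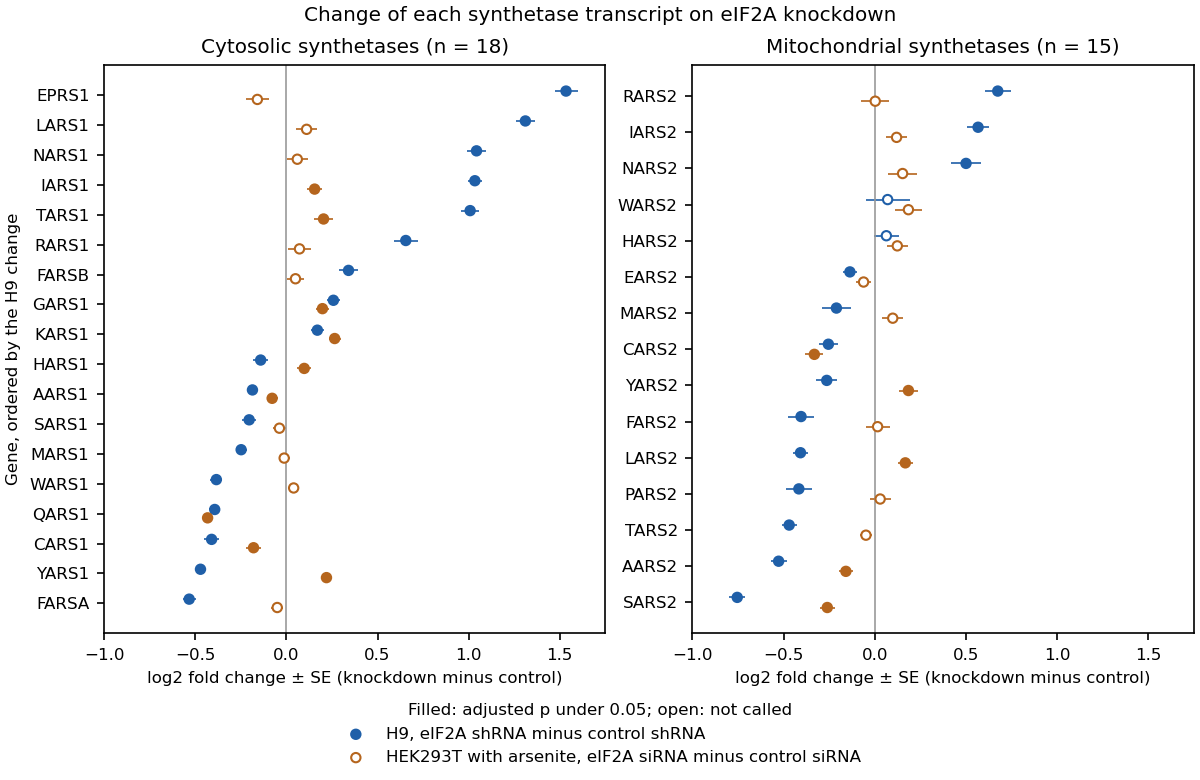
Log2 fold change of each synthetase transcript, knockdown minus control, with its standard error, for H9 (blue) and arsenite-treated HEK293T (brown); filled points were called at an adjusted p under 0.05 and open points were not, and genes are ordered by the H9 change. The H9 changes span -0.75 to 1.53, whereas the HEK293T changes lie between -0.43 and 0.27.

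QARS1, which charges glutamine and belongs to the multisynthetase complex, moved most in HEK293T. The controls held 395 and 402 CPM of it and the siRNA libraries 292 and 299 CPM, so both siRNA libraries lay below both controls. It fell by 0.43 ± 0.032 (SE) on the log2 scale (adjusted p = 1.6e-12). KARS1, the lysyl enzyme of the same complex, went the other way, from 199.99 and 194 to 237 and 236 CPM, and rose by 0.27 ± 0.033 (adjusted p = 1.1e-07). IARS1, the isoleucyl enzyme, rose by 0.16 ± 0.042 (adjusted p = 0.0043). The other 4 listed enzymes of the complex (EPRS1, LARS1, MARS1 and RARS1) did not pass, with values from -0.16 to 0.11. Groups lay apart in most members, called or not, so such separation adds little to a call. In HEK293T this held for 16 of 18 cytosolic and 12 of 15 mitochondrial genes, among them MARS1 (-0.01, edgeR adjusted p = 0.83). In H9 it held for 18 of 18 and 14 of 15. The share over all genes was not counted.

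Among the cytosolic enzymes outside the complex, YARS1, the tyrosyl enzyme, rose by 0.22 ± 0.029 (adjusted p = 3.8e-07), from 900.4 and 914 to 1059 and 1055 CPM. TARS1, the threonyl enzyme, measured 49.7 and 55.6 CPM with control siRNA and 63.2 and 58.6 CPM with eIF2A siRNA, a rise of 0.20 ± 0.051 (adjusted p = 0.0023). The siRNA libraries lay above both controls for YARS1 and for TARS1. GARS1, the glycyl enzyme, rose by 0.20 ± 0.035 (adjusted p = 3.8e-05). CARS1, the cysteinyl enzyme, went from 110.0 and 104 to 94.9 and 93.5 CPM and fell by 0.18 ± 0.040 (adjusted p = 6.6e-04).

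Some of these calls were narrow. AARS1, the alanyl enzyme, was at 472 and 479 CPM against 453 and 447 CPM, a fall of 0.08 ± 0.030 (adjusted p = 0.049) that lost its call in 7 of the 8 fits with 1 library left out. HARS1, the histidyl enzyme, with a rise of 0.10 ± 0.037 (adjusted p = 0.042), lost it in 4. With a trend on GC content and length taken out of each library, the counts were again 6 higher and 3 lower in the cytosolic set and 2 higher and 3 lower in the mitochondrial set, beside 14.9% and 13.0% of all genes, with EPRS1 in place of AARS1 among the genes called lower. The count of cytosolic genes called lower was 6 without control siRNA replicate 1, where EPRS1 (-0.19), FARSA (-0.08) and SARS1 (-0.10) were called as well. The count called higher was 3 without eIF2A siRNA replicate 1, where HARS1, IARS1 (adjusted p = 0.082) and TARS1 (adjusted p = 0.099) were not called.

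Among the mitochondrial genes in HEK293T, CARS2 and SARS2 changed most. CARS2 went from 59.2 and 60.02 to 48.1 and 46.8 CPM, a fall of 0.33 ± 0.049 (adjusted p = 2.3e-06). SARS2, the mitochondrial seryl enzyme, went from 120 and 118 to 97.2 and 101 CPM, a fall of 0.26 ± 0.040 (adjusted p = 4.2e-06). AARS2 went from 140 and 142 to 124 and 128 CPM, a fall of 0.16 ± 0.037 (adjusted p = 0.0012). For these 3 genes the groups did not overlap, but this held for 12 of 15 mitochondrial genes, called or not, and the share over all genes was not counted. Their cytosolic counterparts CARS1 and AARS1, but not SARS1, were called lower too.

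Both mitochondrial genes called higher moved with their groups apart. YARS2 went from 37.0 and 35.6 to 40.8 and 41.6 CPM, a rise of 0.19 ± 0.053 (adjusted p = 0.0074). LARS2 measured 93.1 and 91.3 against 103 and 104 CPM, a rise of 0.17 ± 0.040 (adjusted p = 0.0015). The call of YARS2 was lost without either control siRNA replicate 2 or eIF2A siRNA replicate 2, and with DESeq2 (adjusted p = 0.066). Without eIF2A siRNA replicate 2 and with DESeq2, 1 mitochondrial gene was called higher; without control siRNA replicate 2, HARS2 was called higher as well (0.21).

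In H9, all 18 cytosolic genes tested were called, 9 higher and 9 lower, beside 37.0% of all genes called higher and 34.3% called lower. Of 16 mitochondrial genes, 3 rose and 11 fell. The median log2 fold change was 0.02 over the cytosolic genes and -0.25 over 15 mitochondrial genes without VARS2, against 0.02 over all genes. Most of the direction ran with transcript base composition, described after the values: with a trend on GC content and length removed from each library, 6 cytosolic genes were called higher and 9 lower, and 1 mitochondrial gene higher and 9 lower, beside 24.0% and 28.6% of all genes.

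**Figure D2:**
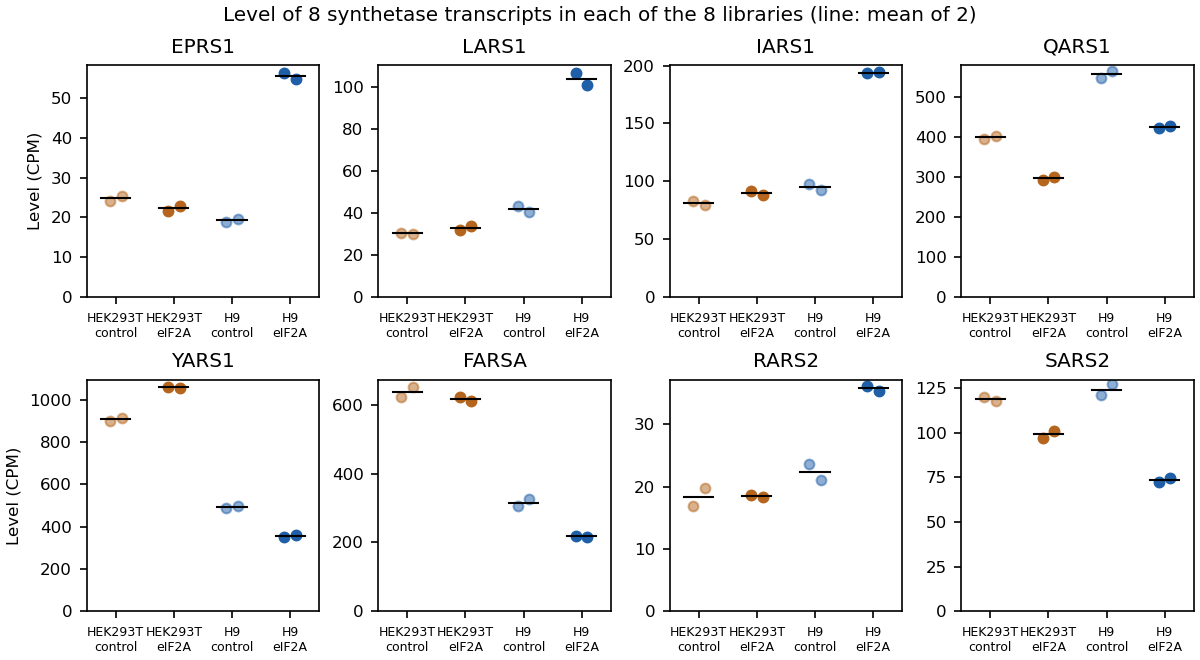
Level in CPM of 8 synthetase transcripts in each library (points; the line is the mean of 2), for control and eIF2A knockdown in HEK293T with arsenite (brown) and H9 (blue). QARS1 and SARS2 lie lower with the knockdown in both lines, EPRS1, LARS1, IARS1 and RARS2 lie higher in H9 with shRNA, and YARS1 lies higher with siRNA in HEK293T and lower with shRNA in H9.

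The multisynthetase complex held the largest rises in H9. EPRS1, which charges both glutamate and proline, went from 18.8 and 19.6 CPM in the control libraries to 56.4 and 54.9 CPM in the shRNA libraries. That is a rise of 1.53 ± 0.063 on the log2 scale, or 2.90-fold (edgeR adjusted p = 1.1e-20), and 0.82 with the trend removed. LARS1, the leucyl enzyme that also acts as a leucine sensor for mTORC1, stood at 43.3 and 40.4 CPM against 107 and 101 CPM, a rise of 1.31 ± 0.051 (adjusted p = 2.8e-21) and 0.54 with the trend removed. For EPRS1 and LARS1 each shRNA library lay far above both controls.

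IARS1 rose by 1.03 ± 0.040 in H9 (adjusted p = 2.4e-21), from 97.3 and 92.1 to 193 and 195 CPM. The arginyl enzyme RARS1 rose by 0.66 ± 0.066, but its change was 0.11 with the trend removed and no longer called (adjusted p = 0.14). KARS1 rose by 0.17 ± 0.034 as measured, was at 0.01 with DESeq2's size factors (adjusted p = 0.81), and was called lower, at -0.10, with the trend removed. The methionyl enzyme MARS1 and QARS1 fell, by 0.25 ± 0.030 and 0.39 ± 0.031, and were still called lower with the trend removed, at -0.13 and -0.21. So 5 of the 7 listed enzymes of the complex rose and 2 fell as measured, beside 37.0% and 34.3% of all genes. With the trend removed 3 rose and 3 fell, beside 24.0% and 28.6% of all genes.

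Phenylalanyl-tRNA synthetase is built of 2 kinds of subunit from separate genes, and these moved in opposite directions in H9. FARSA, the alpha subunit, went from 306 and 325 to 219 and 217 CPM, a fall of 0.53 ± 0.035 (adjusted p = 1.4e-15). FARSB, the beta subunit, went from 65.1 and 56.7 to 78.3 and 76.1 CPM, a rise of 0.34 ± 0.051 (adjusted p = 3.8e-07). Each shRNA library lay outside the range of the controls for both genes. The FARSA transcript has 61.4% GC and the FARSB transcript 41.6%, and with the trend removed both were called lower, at -0.11 and -0.31.

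Of the remaining cytosolic enzymes, NARS1, the asparaginyl enzyme, rose by 1.04 ± 0.051 (adjusted p = 8.8e-19), from 42.2 and 39.5 to 83.1 and 85.5 CPM. TARS1 rose by 1.01 ± 0.050 (adjusted p = 1.1e-18) and GARS1 by 0.26 ± 0.035 (adjusted p = 6.0e-08). All 3 were called higher with the trend removed, at 0.55, 0.58 and 0.11.

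YARS1 was among the genes that fell, from 485 and 498 to 352 and 358 CPM, by 0.47 ± 0.031 (adjusted p = 1.7e-15; -0.30 with the trend removed). CARS1 went from 138 and 142 to 105 and 106 CPM, a fall of 0.41 ± 0.040 (adjusted p = 4.3e-11; -0.31 with the trend removed). Both shRNA libraries lay below both controls for each. WARS1, the tryptophanyl enzyme, fell by 0.38 ± 0.033, and by 0.50 with the trend removed, the lowest value among the cytosolic genes in that fit. SARS1, AARS1 and HARS1 fell by 0.20, 0.19 and 0.14; with the trend removed AARS1 was still called lower, SARS1 was not (adjusted p = 0.051), and HARS1 was at 0.05 (adjusted p = 0.33).

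Mitochondrial synthetase transcripts mostly fell in H9. SARS2 went from 121 and 127 to 72.2 and 74.8 CPM, a fall of 0.75 ± 0.043 (edgeR adjusted p = 4.5e-17). AARS2 went from 87.4 and 89.1 to 61.3 and 61.1 CPM, a fall of 0.53 ± 0.044 (adjusted p = 7.1e-13), and TARS2 from 88.4 and 89.2 to 63.7 and 64.5 CPM, a fall of 0.47 ± 0.042 (adjusted p = 4.5e-12). In all 3 the groups stood apart, and with the trend removed they were still called lower, at -0.30, -0.33 and -0.30.

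PARS2, LARS2 and FARS2 fell by 0.42, 0.41 and 0.40, YARS2, CARS2 and MARS2 by 0.26, 0.25 and 0.21, and EARS2 by 0.14. These charge proline, leucine, phenylalanine, tyrosine, cysteine, methionine and glutamate. With the trend removed, LARS2 and MARS2 were at -0.49 and -0.41, further below 0 than as measured, while FARS2 (-0.07) and CARS2 (0.08) were not called. WARS2 and HARS2 were not called as measured, at 0.07 and 0.06, and WARS2 was called lower, at -0.51, with the trend removed. The call of EARS2 was lost without eIF2A shRNA replicate 2 (adjusted p = 0.084). The call of MARS2 was lost without any 1 of the 4 H9 libraries (adjusted p from 0.050 to 0.075).

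The 3 mitochondrial genes that rose in H9 were RARS2, IARS2 and NARS2. RARS2 went from 23.7 and 21.1 to 36.3 and 35.4 CPM, a rise of 0.68 ± 0.072 (adjusted p = 2.6e-10). IARS2 went from 28.7 and 32.6 to 46.2 and 44.5 CPM, a rise of 0.57 ± 0.062 (adjusted p = 5.7e-10), and NARS2 from 14.4 and 16.2 to 21.6 and 21.6 CPM, a rise of 0.50 ± 0.081 (adjusted p = 1.2e-06). Each shRNA library was above both controls. Only RARS2 was still called among these 3 with the trend removed, at 0.20 (adjusted p = 0.016), while IARS2 and NARS2 were at 0.00 and 0.04.

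VARS1 and VARS2 lie on chromosome 6 and were nearly unread. VARS2 had 2 counts in 1 HEK293T library and 0 in the other 3, so no fold is given there. In H9 it went from 1.96 and 2.57 to 1.55 and 1.40 CPM, a fall of 0.61 ± 0.26 (edgeR adjusted p = 0.037; adjusted p = 0.23 with the trend removed). Among the 20 counted genes nearest to VARS1, 15 had at most 1 count in every library, as had 9 of the 20 nearest to VARS2, against 13.6% of all accessions. A level of 0 for VARS1 thus stands beside low counts for its neighbours.

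The H9 changes followed transcript GC content closely, and those of all genes tested ran the same way. The median of all genes was 0.85 under 45% GC and -0.40 at 60% GC and over. Over all GC ranges, 37.0% of all genes were called higher and 34.3% lower. The shares called within each GC range were not counted. All 16 members with 50% GC or more (51.5 to 61.9%, without VARS1 and VARS2) were called lower, with a median of -0.41. Of the 11 members under 45% GC, 10 were called higher, 0 lower, and WARS2 was not called, with a median of 0.68. Of the 6 between 45 and 50%, 2 were higher (GARS1 and KARS1), 3 lower and 1 not called.

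**Figure D3:**
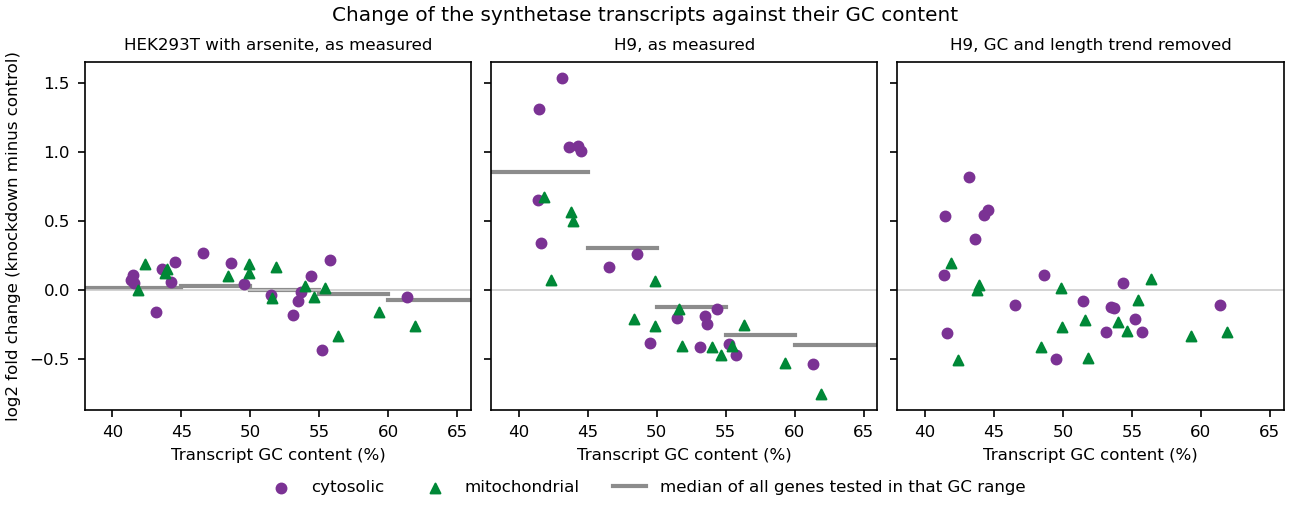
Log2 fold change of each cytosolic (circle) and mitochondrial (triangle) synthetase transcript against its GC content, in HEK293T, in H9 as measured and in H9 with the GC and length trend removed; grey bars are the medians of all genes tested in each GC range. In H9 as measured, members under 45% GC have a median of 0.68 and those of 50% or more a median of -0.41, while in HEK293T the points stay between -0.43 and 0.27.

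Spearman's rho between the H9 log2 change and GC content was -0.89 across the 34 members tested and -0.68 across 14499 genes; these are descriptions across genes of the same 4 libraries. With the trend removed they were -0.40 and -0.17. In HEK293T they were -0.36 and -0.10. The members' value there takes in VARS2, which was nearly unread in HEK293T and is left out of the GC ranges below. In each GC range the members' median in H9 was below that of all genes: 0.68 against 0.85 under 45%, -0.07 against 0.31 at 45 to 50%, -0.25 against -0.12 at 50 to 55%, -0.40 against -0.32 at 55 to 60%, and -0.64 against -0.40 at 60% and over, the last over 2 members.

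As examples of sequence, 60 bases from the middle of the coding sequence (reference transcripts, 5′ to 3′) are given for EPRS1, FARSA and SARS2. In H9, EPRS1 rose most, and FARSA and SARS2 fell most among the cytosolic and the mitochondrial genes. Capitals mark G and C.
EPRS1, bases 2239 to 2298 of the coding sequence: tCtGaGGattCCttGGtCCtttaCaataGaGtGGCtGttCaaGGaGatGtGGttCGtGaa
FARSA, bases 733 to 792 of the coding sequence: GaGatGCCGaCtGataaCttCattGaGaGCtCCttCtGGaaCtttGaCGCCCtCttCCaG
SARS2, bases 751 to 810 of the coding sequence: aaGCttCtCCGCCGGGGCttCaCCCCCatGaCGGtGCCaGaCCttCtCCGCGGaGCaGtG
The whole coding sequence of EPRS1 holds 42.1% GC, and those of FARSA and SARS2 hold 61.9% each. The printed stretch of FARSA is poorer in GC than its whole coding sequence, and those of EPRS1 and SARS2 are richer. The stretches of EPRS1 and FARSA thus differ less in GC than their whole coding sequences do.

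The difference of the 2 knockdown contrasts, H9 minus HEK293T, was called for 15 cytosolic genes (7 higher, 8 lower) and 11 mitochondrial genes (3 higher, 8 lower), beside 31.1% of all genes higher and 27.0% lower. The lines also differ in siRNA against shRNA and in arsenite, and these cannot be told apart. EPRS1 (1.69 ± 0.091, adjusted p = 7.1e-17), LARS1 (1.20 ± 0.079, adjusted p = 8.3e-15) and NARS1 (0.98 ± 0.077, adjusted p = 6.3e-13) had the largest positive differences among the cytosolic genes. YARS1 (-0.69 ± 0.043, adjusted p = 1.9e-15), FARSA (-0.48 ± 0.047, adjusted p = 9.8e-11) and WARS1 (-0.42 ± 0.045, adjusted p = 6.6e-10) had the largest negative ones. With the trend removed, 6 cytosolic genes were called higher and 5 lower and 2 mitochondrial genes higher and 8 lower, beside 19.7% and 24.2% of all genes. Of the 6 genes just named, FARSA alone was not called with the trend removed (-0.10, adjusted p = 0.055).

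Among the mitochondrial genes, RARS2 (0.67 ± 0.11, adjusted p = 1.2e-06), IARS2 (0.45 ± 0.086, adjusted p = 2.9e-05) and NARS2 (0.35 ± 0.11, adjusted p = 0.0081; 0.087 without H9 control replicate 1) had positive differences, and LARS2 (-0.57 ± 0.059, adjusted p = 2.7e-10), SARS2 (-0.49 ± 0.059, adjusted p = 6.7e-09) and YARS2 (-0.45 ± 0.079, adjusted p = 8.2e-06) the largest negative ones. With the trend removed, the differences of IARS2 (-0.07), NARS2 (-0.07) and SARS2 (-0.08) were not called.

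Over the 33 members other than VARS1 and VARS2, 4 were called higher in both lines (GARS1, IARS1, KARS1 and TARS1) and 6 lower in both (AARS1, CARS1, QARS1, AARS2, CARS2 and SARS2), beside 5.19% and 8.74% of all genes. Another 4 rose in HEK293T and fell in H9: both tyrosyl enzymes YARS1 and YARS2, HARS1 and LARS2, beside 5.81% of all genes. None fell in HEK293T and rose in H9, beside 3.19% of all genes. In H9, KARS1 was called lower with the trend removed, and CARS2 and HARS1 were not called there. On the HEK293T side, the calls of AARS1, HARS1 and YARS2 were each lost with DESeq2. QARS1 fell by nearly the same amount in both lines, by 0.43 and 0.39, and its difference was 0.04 ± 0.044 (adjusted p = 0.47); that difference was -0.12 with DESeq2's size factors, and 0.21 and called with the trend removed (adjusted p = 1e-04).

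For the relation to ATF4, the cytosolic enzymes were divided into 13 known as ATF4 targets and 6 others, a division taken from general knowledge. Of the 12 targets tested, 4 rose and 2 fell in HEK293T, and 6 rose and 6 fell in H9. Of the 6 others, 2 rose and 1 fell in HEK293T, and 3 rose and 3 fell in H9. Over all genes the shares called higher and lower were 14.1% and 14.7% in HEK293T and 37.0% and 34.3% in H9. In H9, 6 targets were called higher and 5 lower with the trend removed, against 0 and 4 of the others, beside 24.0% and 28.6% of all genes. This difference between the sets was not tested. The 6 genes whose promoters hold the core printed above also went both ways in H9: TARS1, IARS1 and NARS1 rose by about 1 on the log2 scale, whereas CARS1, MARS1 and AARS1 fell by 0.41, 0.25 and 0.19. The first 3 have 43.6 to 44.5% GC and the last 3 have 53.1 to 53.7%; with the trend removed the directions were as before, at 0.58, 0.37 and 0.55 and at -0.31, -0.13 and -0.13.

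The ATF4 transcript itself measured 1679 and 1776 CPM with control siRNA and 1694 and 1673 CPM with eIF2A siRNA, with overlapping groups and no call (-0.04 ± 0.030, adjusted p = 0.39; -0.07 and called without control siRNA replicate 1, adjusted p = 0.025). In H9 it went from 948 and 962 to 622 and 611 CPM, a fall of 0.63 ± 0.031 (edgeR adjusted p = 8.3e-19; -0.31 with the trend removed). ATF4 protein was not measured here. Of ATF4 and 29 other target genes, 8 rose and 7 fell in HEK293T (median -0.05), and 6 rose and 20 fell in H9 (median -0.35; 5 and 18 with the trend removed). The shares of all genes given above for each line apply here too: 14.1% and 14.7% in HEK293T and 37.0% and 34.3% in H9. With the trend removed the H9 shares were 24.0% and 28.6%.

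Single ATF4 targets outside the synthetases differed as well. ASNS, asparagine synthetase, was at 0.01 in HEK293T (adjusted p = 0.92) and fell by 0.31 ± 0.036 in H9 (-0.55 with the trend removed). TRIB3, a pseudokinase, was at -0.07 in HEK293T (adjusted p = 0.38) and fell by 0.37 ± 0.051 in H9, where it was not called with the trend removed (-0.04). CHAC1, which degrades glutathione, fell in both, by 0.30 ± 0.057 in HEK293T and 0.82 ± 0.046 in H9. These were -0.27 and -0.34 with the trend removed, and their difference was not called (adjusted p = 0.49). DDIT3, the stress factor CHOP, was called in neither (0.14 and 0.08). Without control siRNA replicate 1, DDIT3 was called higher in HEK293T (0.21), and without control siRNA replicate 2, TRIB3 was called lower there (-0.15).

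The scaffolds of the multisynthetase complex did not move together. EEF1E1 (AIMP3) went from 24.8 and 24.1 to 32.4 and 33.5 CPM in HEK293T, a rise of 0.43 ± 0.060 (edgeR adjusted p = 7.5e-07). In H9 it was not called as measured (-0.10 ± 0.066, adjusted p = 0.19) and was called lower with the trend removed (-0.51) and with DESeq2's size factors (-0.26). In H9, AIMP2 fell by 0.53 ± 0.045, and AIMP1 rose by 0.49 ± 0.097, a rise not called with the trend removed (-0.06). Neither was called in HEK293T (0.01 and 0.06).

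Of 12 other factors of tRNA charging and export, 2 rose and 0 fell in HEK293T, and 5 rose and 4 fell in H9, beside 14.1% and 14.7% of all genes in HEK293T and 37.0% and 34.3% in H9. In H9, 0 were called higher and 8 lower with the trend removed (median -0.41), beside 24.0% and 28.6% of all genes. XPOT, the tRNA export receptor, rose by 0.20 ± 0.058 in HEK293T (not called without control siRNA replicate 1 or eIF2A siRNA replicate 1) and by 0.53 ± 0.051 in H9, where it was called lower, at -0.35, with the trend removed. QRSL1, GATB and GATC form the amidotransferase that makes glutaminyl-tRNA in mitochondria, in place of a mitochondrial QARS. QRSL1 rose in HEK293T by 0.36 ± 0.068 (adjusted p = 7.9e-05), and in H9 QRSL1 rose by 0.28 ± 0.073 while GATB and GATC fell by 0.55 ± 0.057 and 0.15 ± 0.042; all 3 were called lower in H9 with the trend removed.

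Of 7 elongation factors that carry or recycle charged tRNA and translocate the ribosome, 2 rose and 2 fell in HEK293T, and 1 rose and 6 fell in H9, beside 14.1% and 14.7% of all genes in HEK293T and 37.0% and 34.3% in H9. EEF1G of the nucleotide exchange complex fell by 0.52 ± 0.030 in H9, and EEF1D by 0.52 ± 0.032, which came to -0.18 and -0.15 with the trend removed. TUFM, which delivers charged tRNA to the mitochondrial ribosome, fell in both lines, by 0.21 ± 0.031 and 0.54 ± 0.031, the latter -0.21 with the trend removed. GFM1, the mitochondrial translocase, was the riser in H9, at 0.78 ± 0.090, and was not called there with the trend removed (0.09).

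Levels of different genes are compared only as CPM per kilobase of transcript. In the HEK293T controls the cytosolic means ran from 4.95 for EPRS1 to 351 for FARSA, and the mitochondrial means from 5.94 for NARS2 to 76.9 for TARS2, leaving out VARS1 and VARS2. In the H9 controls they ran from 3.84 for EPRS1 to 199 for MARS1, with QARS1 next at 197, and from 2.33 for WARS2 to 76.0 for SARS2. The subunits of phenylalanyl-tRNA synthetase, which join in equal numbers in the enzyme, stood at 351 (FARSA) and 29.7 (FARSB) in the HEK293T controls and at 174 and 18.1 in the H9 controls.

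**Figure D4:**
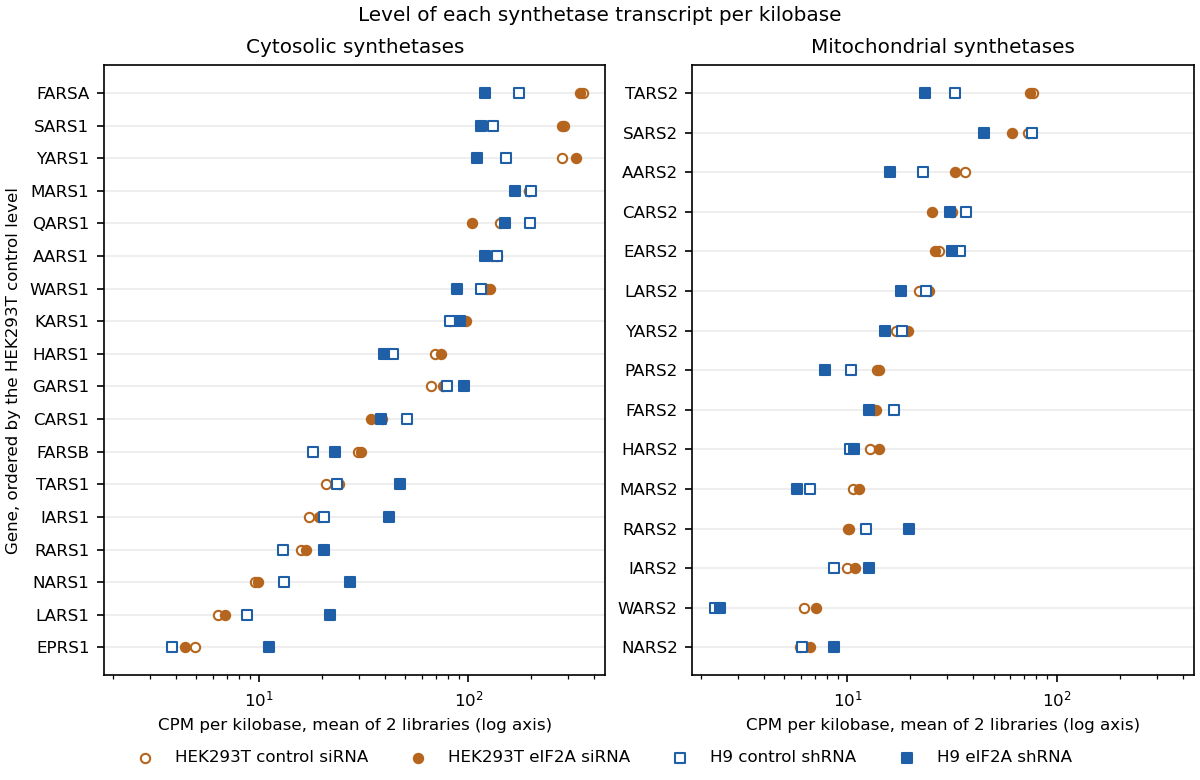
Level of each synthetase transcript as CPM per kilobase (log axis, mean of 2 libraries) in the 4 groups, with genes ordered by the HEK293T control level. EPRS1 is lowest among the cytosolic genes drawn in every group, from 3.84 to 11.1, and FARSA is highest in both HEK293T groups, at 351 and 340.

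Per kilobase levels also ran with GC content, with a Spearman's rho across 33 members of 0.64 in the HEK293T controls, 0.61 with siRNA, 0.62 in the H9 controls and 0.36 with H9 shRNA. Summed over the cytosolic genes, the level per kilobase was 1453 and 1465 in the H9 controls and 1324 and 1325 with shRNA, and over the mitochondrial genes 317 and 321 against 259 and 263. In HEK293T the cytosolic sums overlapped, at 1845 and 1903 against 1901 and 1885, and the mitochondrial sums were 366 and 369 against 350.2 and 352.

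Set beside each other by amino acid, the ratio of cytosolic to mitochondrial transcript per kilobase spanned a wide range. In the HEK293T controls it was 19.8 for WARS, 18.4 for MARS and 16.4 for YARS, against 1.22 for CARS, 0.29 for LARS and 0.27 for TARS. For leucine and threonine the mitochondrial transcript thus had the higher level per kilobase in the HEK293T controls, and in the H9 controls too, at 0.37 and 0.72. With shRNA in H9 these ratios were 1.22 and 2.02, as LARS1 and TARS1 rose and LARS2 and TARS2 fell. LARS1 and TARS1 have 41.48 and 44.55% GC, and LARS2 and TARS2 have 51.84 and 54.64%. With the trend removed, the H9 changes were 0.54 for LARS1, 0.58 for TARS1, -0.49 for LARS2 and -0.30 for TARS2. The ratios were not computed with the trend removed.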

How the data were processed

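RNA sequencing counts of 8 libraries were analysed. The authors deposited raw counts per RefSeq transcript accession, not normalized. Reads were handled with cutadapt and STAR 2.5.2b on hg19, per the submitters' processing notes; libraries were made with a TruSeq Stranded mRNA kit, per the labels' protocols. The counting program, strand setting and annotation were not given in the sources used here. Overlapping antisense genes and close copies such as HARS1 and HARS2 are less certain. Of 19305 accessions, 18888 were named from a RefSeq table and 225 from GENCODE; reads outside features (14.95 to 20.84%) stayed out of library sizes.

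Genes were kept by filterByExpr, scaled with TMM and fitted as 4 group means over all 8 libraries (edgeR 4.0.16 in R 4.3.3, quasi-likelihood F test, two-sided, Benjamini-Hochberg over 14565 genes). Log2 fold changes are ± SE, where the SE is the size of the change divided by the square root of its F statistic. The fit with the trend removed took, per library, a spline of log2 counts on transcript GC content and length as an offset, over 14499 genes. The code was tested on simulated data. Replicates with the same set number did not deviate together (correlation -0.029 in HEK293T and 0 in H9), so the numbers were not treated as pairs.

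Members, lists and tests were chosen with earlier results of these data known. Every member may be named; full values were given for up to 3 called members with the largest rise and 3 with the largest fall in each compartment and contrast, and other genes were EIF2A, ATF4, DDIT3, ASNS, TRIB3, CHAC1, AIMP1, AIMP2, EEF1E1, XPOT and up to 4 called genes of each further list. FARSB, QRSL1, GATB and GATC were described as partners of named genes after their values were seen. Alternatives were DESeq2 1.42.0 and its size factors, other filters, each line alone, a replicate block, the trend removed and each library left out. No genome coordinates in hg19 are given.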

Additional observations from a re-analysis of the deposited data

Results flagged for a closer look

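Of 34 synthetase genes tested, 26 changed differently in the 2 lines, 10 with a positive and 16 with a negative difference. The difference itself was tested (edgeR's interaction term, H9 minus HEK293T, adjusted p under 0.05). Over all genes, 31.1% had a positive difference called and 27.0% a negative one, so such calls were common outside the synthetases too. The lines differ in arsenite and in siRNA against shRNA too, so what sets these differences cannot be told apart. Positive differences on the log2 scale among the cytosolic genes were 1.69 for EPRS1, 1.20 for LARS1, 0.98 for NARS1, 0.88 for IARS1, 0.80 for TARS1, 0.58 for RARS1 and 0.29 for FARSB. Among the mitochondrial genes they were 0.67 for RARS2, 0.45 for IARS2 and 0.35 for NARS2. All 10 of these transcripts have under 45% GC. In the fit without the GC and length trend, 19.7% of all genes had a positive difference called and 24.2% a negative one. There, 15 of the 26 differences were called in the same direction. FARSB was called in the opposite one (-0.32), and 10 were not called: AARS1, CARS1, FARSA, HARS1, RARS1, SARS1, FARS2, IARS2, NARS2 and SARS2.

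Negative differences among the cytosolic genes were -0.69 for YARS1, -0.48 for FARSA, -0.42 for WARS1, -0.24 for HARS1, -0.24 for MARS1, -0.23 for CARS1, -0.17 for SARS1 and -0.11 for AARS1. Among the mitochondrial genes they were -0.57 for LARS2, -0.49 for SARS2, -0.45 for YARS2, -0.45 for PARS2, -0.42 for TARS2, -0.42 for FARS2, -0.37 for AARS2 and -0.31 for MARS2. YARS1, YARS2, HARS1 and LARS2 were called in opposite directions in the 2 lines. For HARS1 the H9 change was 0.05 and not called with the trend removed, and its HEK293T call was lost with DESeq2, with the replicate block and in 4 of 8 fits with 1 library left out.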

How the results depend on the processing

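With 2 libraries a group, small changes are the least certain, above all in HEK293T. Leaving out each library in turn, the cytosolic genes called in HEK293T numbered 3 to 6 higher and 2 to 6 lower, and the mitochondrial genes 1 to 2 higher; in H9 the cytosolic counts were 9 and 9 throughout. The count of mitochondrial genes called lower in H9 was not stable in this way and became smaller in some of these fits. The calls of MARS2 and EARS2 lost there are described above. DESeq2 left 1 mitochondrial gene called higher in HEK293T. With the GC and length trend removed, 1 mitochondrial gene was called higher in H9 and 5 cytosolic genes had a difference between the lines called lower, against 8 as measured; the same counts came with the replicate block added. DESeq2's size factors moved the H9 median of all genes from 0.02 to -0.13 and the calls from 5389 higher and 4991 lower to 4553 and 6124. They turned the QARS1 difference to -0.12, now called, and ended the calls of KARS1 in H9 and of AARS1 and HARS1 in HEK293T. The differences of FARSB (0.13) and NARS2 (0.19) were no longer called, while those of KARS1 (-0.25), EARS2 (-0.23) and HARS2 (-0.22) were.

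With the trend removed, these H9 changes turned sign (value without, then with the replicate block, where they differ): FARSB -0.314 and -0.313, KARS1 -0.105, HARS1 0.049, CARS2 0.077, WARS2 -0.507 and -0.506, AIMP1 -0.063 and XPOT -0.352. So did the differences of FARSB (-0.320 and -0.318), IARS2 (-0.070 and -0.071), NARS2 (-0.065 and -0.066), AIMP1 (-0.079 and -0.082) and XPOT (-0.574 and -0.576). The cause was not tested. The replicate block alone ended the HEK293T calls of AARS1 (edgeR adjusted p = 0.12) and HARS1 (adjusted p = 0.080) and the AARS1 difference (adjusted p = 0.076). It ended no other call of a synthetase, leaving aside VARS1 and VARS2, which were not followed singly across these settings.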
